A study of Mus musculus with 18 samples.

Results

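Messenger RNA of 9 genes known for their expression in astrocytes was followed from cultured brain cells into the small extracellular vesicles (sEVs, lipid-enclosed carriers shed into the medium) that the cultures released. The genes were taken by name from the 54307 rows of the deposited table, where each symbol matched 1 row. They fall into 6 genes for cytosolic products (Gfap, Vim, Aldoc, Glul, S100b and Aldh1l1) and 3 for proteins that span the membrane (Aqp4, Gja1 and Gjb6). The study addressed how far mRNA packaging into sEVs depends on the cell type. It holds 18 libraries of poly(A) RNA in 6 groups of 3 replicates, namely primary mouse astrocytes, microglia and neurons and the sEVs derived from each, without any treatment, and the labels give no strain, age or sex. The tissue is given as brain and the cells as primary cultures, and cell RNA was taken from part of the cells that had released the sEVs. The values do not settle whether the replicate numbers pair the libraries. Nothing in the labels says that replicates came from separate animals or cultures, so p-values measure only the spread between these libraries, which may be technical.

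As textbook background, mRNAs of cytosolic proteins are translated on free ribosomes, whereas mRNAs of membrane and secreted proteins are brought to the endoplasmic reticulum once a hydrophobic stretch of the nascent chain emerges. In astrocytes, Gfap and Vim encode intermediate filament proteins of the cytoskeleton, and Aldoc, Glul and Aldh1l1 encode enzymes of glycolysis, of glutamine synthesis from glutamate and of folate metabolism. S100b encodes a small calcium-binding protein, Aqp4 the water channel of the astrocyte endfoot, and Gja1 and Gjb6 the 2 connexins best known from astrocyte gap junctions.

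The hydrophobic stretches can be read in the coding sequences, since codons with T at the second position encode only hydrophobic residues (phenylalanine, leucine, isoleucine, methionine and valine). In each gene the stretch of 19 codons with most such codons was found. It is printed 5′ to 3′ for 2 enzymes and 1 connexin, to show what separates the classes, with every T at a second codon position in capitals. The sequences come from the GENCODE vM21 transcripts (GRCm38), a build other than that of the table.
Aldoc: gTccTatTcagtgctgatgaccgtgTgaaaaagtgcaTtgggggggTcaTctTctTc
Aldh1l1: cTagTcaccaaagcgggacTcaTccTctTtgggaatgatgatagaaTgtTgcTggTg
Gjb6: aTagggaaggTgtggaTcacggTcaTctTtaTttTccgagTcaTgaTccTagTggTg
The stretch of Aldoc (codons 62 to 80) holds 9 capitals and that of Aldh1l1 (codons 271 to 289) holds 10, whereas that of Gjb6 (codons 20 to 38) holds 14. Counted in the same way, Gfap, Vim, Glul and S100b reached 9 such codons, Aqp4 reached 12 and Gja1 reached 15. On GRCm38 the genes lie on chromosome 11 (Gfap and Aldoc), 2 (Vim), 1 (Glul), 10 (S100b and Gja1), 6 (Aldh1l1), 18 (Aqp4) and 14 (Gjb6).

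Values are normalized counts, which summed to between 36947428 and 69276566 per library. Between 7840 and 15951 genes reached a normalized count of 10 in sEV libraries and between 13494 and 18131 in cell libraries. Ftl1 (ferritin light chain) alone took 3.95 to 22.0% of the sEV totals against 0.280 to 1.41% of the cell totals, and the 9 genes together took 2.01 to 2.17% of astrocyte cell and 0.837 to 1.86% of astrocyte sEV totals. The labelled cell types carried their own markers. The 8 astrocyte markers, 5 of which are among the 9 genes, summed to 920911 to 1148747 in astrocyte cells, 120641 to 136076 in neuron cells and 3787 to 13885 in microglia cells, where S100b was at 0. Astrocyte cells also held oligodendrocyte lineage markers (all 9 detected, summing to 261697 to 467075) and neuron markers (14571 to 19196, with Slc17a7 at 0). Neuron cells held oligodendrocyte lineage markers as well (36823 to 107829). Microglia cells held all 6 fibroblast and meningeal markers (12646 to 25524, against 1067 to 2784 in astrocyte cells). The share of the 9 genes' RNA that came from astrocytes within neuron cultures, or from other cells within any culture, was not tested. In such bulk samples fewer cells of a type and less RNA per cell cannot be told apart.

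Gfap, the defining filament of astrocytes, had the highest counts of the 9 genes in astrocyte cells and in their sEVs. Its normalized count was 396829.5, 454959 and 369385 in the 3 astrocyte cell libraries and 366239.8, 365533 and 648097 in the 3 sEV libraries. The groups overlapped, with 1 sEV library well above the other 5 libraries. The difference was 0.13 ± 0.59 on the log2 scale (SE of the fit, limma, adjusted p = 0.955). In neuron cultures Gfap was at 37706, 42356 and 33362 in cells and at 58029, 86029 and 79279 in sEVs, where every sEV library lay above every cell library. That difference of 0.96 ± 0.59 was not called with the spread of all 18 libraries (limma, adjusted p = 0.255), but it was with that of the 6 neuron libraries alone (adjusted p = 0.00535). In microglia Gfap was at 8402, 870.3 and 1347 in cells and at 2231, 2513 and 1087 in sEVs, with 1 cell library above the other 5 libraries. The order of group means was astrocyte sEVs, astrocyte cells, neuron sEVs, neuron cells, microglia cells and microglia sEVs, and only the first and the last neighbours in it overlapped.

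**Figure D1:**
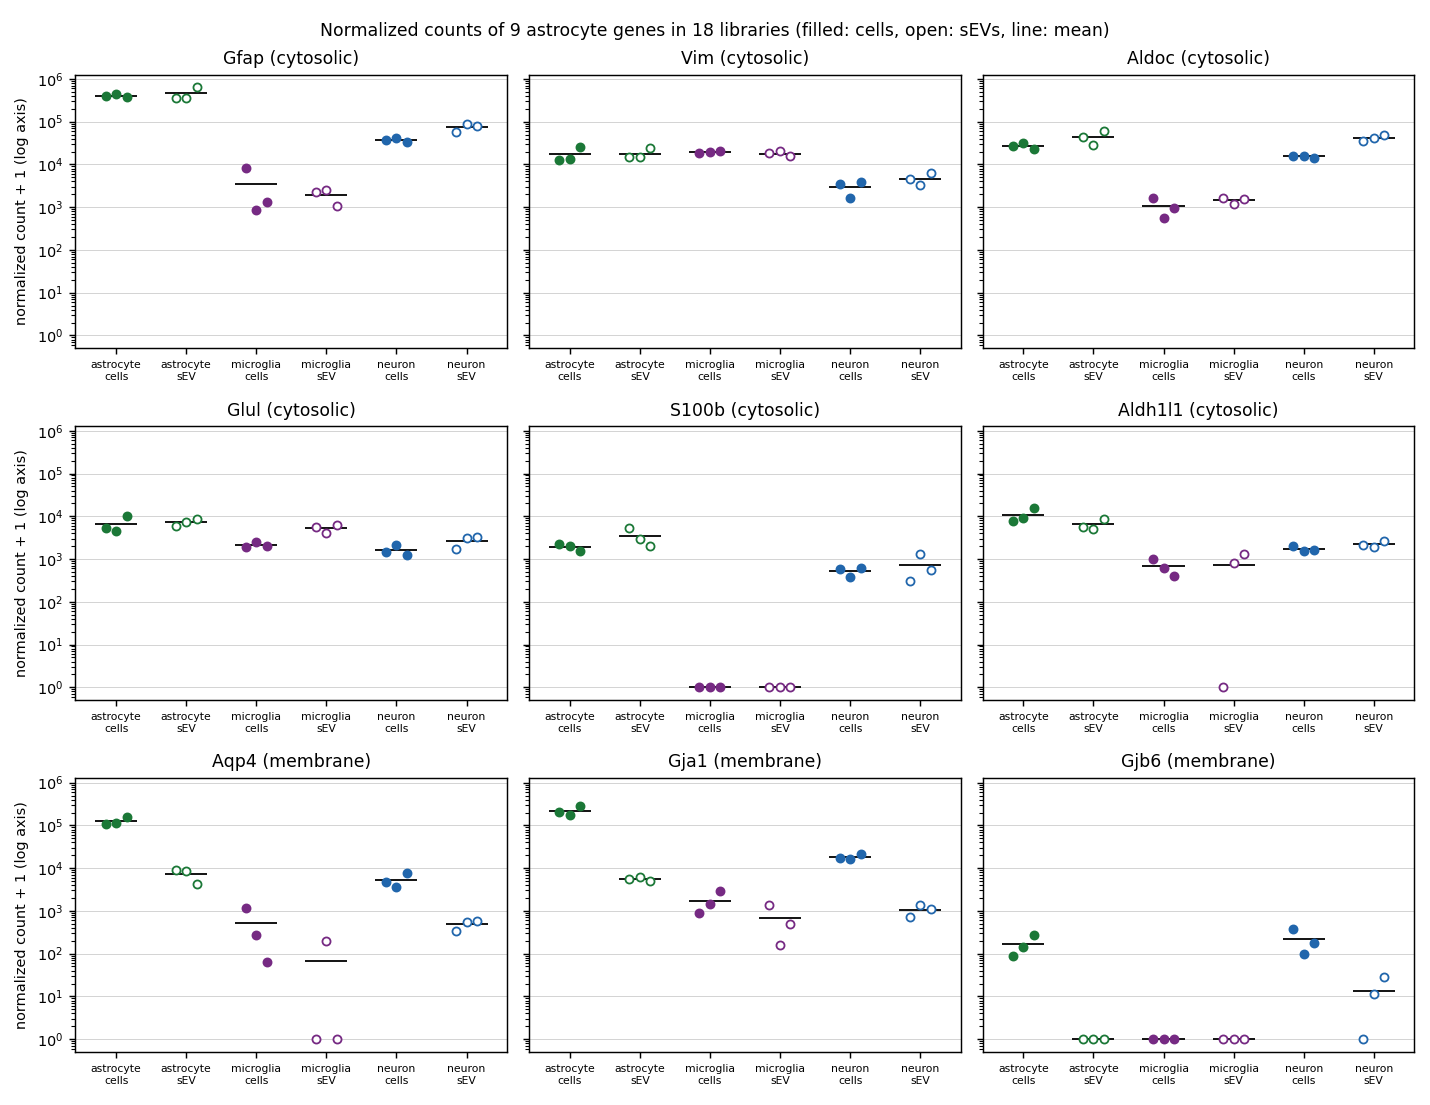
Normalized counts (plus 1, log axis) of the 9 genes in each of the 18 libraries, with filled points for cells, open points for sEVs and a line at the mean of each group of 3. Gfap, Vim, Aldoc and Glul lie at like heights in astrocyte cells and sEVs, whereas Aqp4, Gja1 and Gjb6 drop in astrocyte and neuron sEVs, and points on the bottom line are listed at 0.

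Vim (vimentin), the filament partner of Gfap in astrocytes and a filament of many other cells, had like levels in astrocytes and microglia. It was at 12399, 13215 and 26079.5 in astrocyte cells and at 15104, 14671 and 23871 in astrocyte sEVs. Microglia cells held 18607, 19284 and 20099 and microglia sEVs 18251, 20236 and 15354. These 4 groups overlapped in the ordered means, and neuron sEVs (4626, 3235 and 6142) and neuron cells (3482, 1680 and 3919) lay below all of them. The sEV differences were 0.10 ± 0.34 in astrocytes, -0.12 ± 0.34 in microglia and 0.67 ± 0.34 in neurons, none of them called (limma, adjusted p = 0.906, 0.960 and 0.163).

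Aldoc, the brain form of the glycolytic enzyme aldolase, had the highest counts of the 3 enzyme genes in astrocyte and neuron cultures. Astrocyte cells held 27271, 31985 and 23469 and astrocyte sEVs 43181, 28315 and 62018, and 1 sEV library lay within the range of the cells. The difference was 0.63 ± 0.33 (limma, adjusted p = 0.182). In neuron cultures the cells held 15852, 16114 and 13943 and the sEVs 36101, 41415 and 48342. There all sEV libraries lay above all cell libraries, and Aldoc rose by 1.45 ± 0.33 (limma, adjusted p = 0.00347), a 2.73-fold difference. Astrocyte and neuron sEVs did not separate, with means of 44505 ± 16891 and 41953 ± 6138 (SD, n = 3). Microglia held 1655, 550.3 and 948 in cells and 1629, 1164 and 1539 in sEVs, a difference of 0.59 ± 0.33 that was not called (limma, adjusted p = 0.222), although it was without cell replicate 1 (0.98, adjusted p = 0.0289).

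Glul, which makes glutamine from glutamate and ammonia, was called in microglia. Its count was 1959, 2493 and 2023 in microglia cells and 5612, 4059 and 6335 in microglia sEVs, without overlap. The rise was 1.29 ± 0.33 (limma, adjusted p = 0.00996), 2.44-fold, and it was not called with library quality weights (1.25, adjusted p = 0.144). In astrocytes the counts were 5339, 4476 and 10262 in cells and 5943, 7239 and 8690 in sEVs, and the groups overlapped (0.20 ± 0.33, limma, adjusted p = 0.733). Neuron cells held 1454, 2094 and 1260.4 and neuron sEVs 1709.8, 3129 and 3285. That difference of 0.73 ± 0.33 was not called (limma, adjusted p = 0.117), but it was without neuron sEV replicate 1 (1.03, adjusted p = 0.0383), with quantile normalization (1.11, adjusted p = 0.0229) and with library weights (0.88, adjusted p = 0.0197). Reads of other genes may be counted with Glul, since a processed pseudogene, Glns-ps1, shares 96.8% of 1126 bases with it and Teddm2 overlaps it on the other strand, which the library kit does not mark.

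Aldh1l1, a folate enzyme used as a marker of astrocytes, was the single cytosolic gene with a lower mean in astrocyte sEVs. Astrocyte cells held 7899, 8867 and 15806 and astrocyte sEVs 5529.6, 5090.2 and 8733, so that the highest sEV library lay between cell libraries. The difference of -0.72 ± 1.79 was not called (limma, adjusted p = 0.848), and its spread is shared with microglia sEVs, whose libraries held 0, 806 and 1311 beside 1006, 611 and 394 in microglia cells. Neuron cells held 2001, 1529.5 and 1611 and neuron sEVs 2072, 1937 and 2630.0 (0.37 ± 1.79, limma, adjusted p = 0.930). An antisense gene, Gm15756, and a gene on the same strand, Gm45901, overlap Aldh1l1. Reads of Aldh1l1 and Gm15756 cannot be told apart without strand, and the overlap with Gm45901 would remain even with it.

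S100b, which has the shortest coding sequence of the 9 genes (276 bases), was listed at 0 in all 6 microglia libraries. Astrocyte cells held 2257, 2060.2 and 1510.2 and astrocyte sEVs 5289, 2894 and 2029. The lowest sEV library lay within the range of the cells, and the difference of 0.71 ± 0.58 was not called (limma, adjusted p = 0.416). Neuron cells held 589.7, 386 and 627 and neuron sEVs 309, 1326 and 564, with the lowest and the highest of these 6 values both in sEVs (0.23 ± 0.58, limma, adjusted p = 0.834).

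Gja1, the main connexin of astrocyte gap junctions and the second most abundant of the 9 genes in astrocyte cells, fell most clearly. Its count was 207512, 173876 and 283633 in astrocyte cells and 5586, 6084 and 4889.6 in astrocyte sEVs. No library of one kind came near the other, the sEV mean was 2.49% of the cell mean, and the fall was -5.30 ± 0.57 (limma, adjusted p = 7.83e-06), a 39.5-fold difference. In neuron cultures Gja1 went from 17322, 16171 and 21041 in cells to 734, 1370.4 and 1114 in sEVs. This fall of -4.12 ± 0.57 (limma, adjusted p = 5.74e-05) was 17.4-fold, again without overlap. In microglia the counts were far lower and overlapped, with 911, 1411 and 2854 in cells and 1349, 162 and 482 in sEVs. The difference of -1.70 ± 0.57 was called (limma, adjusted p = 0.0391), but not without cell replicate 2 or 3 (-1.77 and -1.26, adjusted p = 0.0801 and 0.171) or sEV replicate 2 or 3 (-0.93 and -1.72, adjusted p = 0.159 and 0.0657). Nor was it called with totals made equal (adjusted p = 0.0871), quantile normalization (0.0852), no filter (0.0542) or the 6 microglia libraries alone (0.204).

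Aqp4 fell to a few percent of its cell level in astrocyte sEVs but did not pass the test of the main fit. Its count was 107090.3, 111156 and 156831 in astrocyte cells and 9039, 8595 and 4365 in astrocyte sEVs. All 3 sEV libraries lay more than 10-fold below the lowest cell library, and the sEV mean was 5.87% of the cell mean. The difference was -4.14 ± 1.52 (limma, adjusted p = 0.0571). The fit shares 1 spread per gene over all 18 libraries, and in microglia sEVs Aqp4 was at 0, 196 and 0. With the 6 astrocyte libraries alone the same difference was called (adjusted p = 0.000667), as it was with a pseudocount of 10 (-4.14, adjusted p = 0.00601), library weights (-4.30, adjusted p = 0.0167), quantile normalization (-4.09, adjusted p = 0.0229) and equal totals (-4.31, adjusted p = 0.0449). It stayed uncalled whichever single astrocyte cell or sEV library was left out (limma, adjusted p = 0.0929 to 0.136). Neuron cells held 4792, 3689 and 7555 and neuron sEVs 329, 549 and 567, which did not overlap. That difference of -3.45 ± 1.52 was likewise not called in the main fit (limma, adjusted p = 0.104) and was with the 6 neuron libraries alone (adjusted p = 7.18e-05). In microglia cells Aqp4 was at 1183, 275 and 64.4, and the called difference of -5.58 ± 1.52 (limma, adjusted p = 0.0135) has a size that depends on the pseudocount, since 2 sEV libraries are at 0. With a pseudocount of 10 it was -3.42 and still called (adjusted p = 0.0214). It was not called without cell replicate 1, sEV replicate 1 or sEV replicate 3 (-4.53, -4.31 and -4.31, adjusted p = 0.0675, 0.0589 and 0.0543), with library weights (-4.90, adjusted p = 0.0561) or with the 6 microglia libraries alone (adjusted p = 0.158).

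Gjb6, the connexin that partners Gja1 in mature astrocytes, was the scarcest gene. Astrocyte cells held 87.0, 140.5 and 268, and all 3 astrocyte sEV libraries were listed at 0. The gene was called lower (limma, adjusted p = 4.41e-05), and no fold is given against a group at 0. It passed the filter mainly through cell libraries, and groups at 0 add no spread to the fit. The call is therefore a description and no separate support for a fall of the membrane genes. Neuron cells held 382, 98.2 and 180.3, as much as astrocyte cells, and neuron sEVs 0, 10.4 and 26.7. The fall in neurons was -4.81 ± 0.94 (limma, adjusted p = 0.00111), and 1 of its sEV libraries is at 0, so that the size depends on the pseudocount. All 6 microglia libraries were listed at 0.

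**Figure D2:**
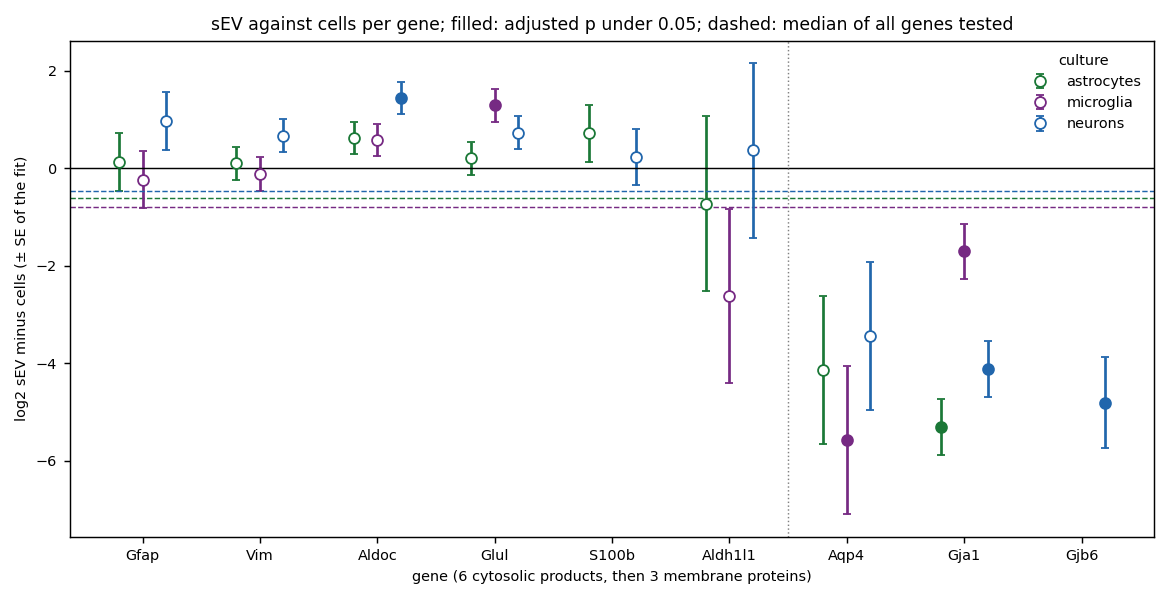
Difference between sEVs and cells on the log2 scale for each gene in astrocytes, microglia and neurons, with the SE of the fit as error bars, filled points for an adjusted p under 0.05 and dashed lines at the medians of all genes tested (-0.60, -0.79 and -0.47). The cytosolic genes scatter around or above 0 apart from Aldh1l1, and the membrane genes lie between -1.70 and -5.58. Genes with a group at 0 (Gjb6 in astrocytes and microglia, S100b in microglia) are not drawn.

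Counted by class, limma called 0 of 6 cytosolic genes higher and 0 lower in astrocyte sEVs, and 0 of them had an unadjusted p under 0.05. Among the 3 membrane genes 2 were called lower, Gja1 and, against a group at 0, Gjb6. Over all 19612 genes tested, 8.0% were called higher and 18.6% lower. In neurons 1 of 6 cytosolic genes was called higher and 2 of 3 membrane genes lower, beside 11.1% of all genes called higher and 18.9% lower. In microglia 1 of 5 tested cytosolic genes was called higher and both tested membrane genes lower, beside 5.08% and 21.2% of all genes. The median difference of the cytosolic genes was 0.16 in astrocytes, 0.70 in neurons and -0.12 in microglia, against -0.60, -0.47 and -0.79 over all genes tested. That of the membrane genes was -4.12 in neurons, -3.64 in microglia (Aqp4 and Gja1) and -4.72 in astrocytes without Gjb6. With Gjb6 set at a floor of 3 normalized counts per sEV library, the astrocyte median was -5.22, and with Gjb6 as fitted it was -5.30.

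Within single libraries the separation of the classes needs no scaling between libraries. The membrane genes held 41.0, 35.6 and 49.7% of the 9 genes' summed counts in astrocyte cells and 3.21, 3.35 and 1.21% in astrocyte sEVs. In neuron cultures they held 26.9, 23.7 and 34.5% in cells and 1.02, 1.39 and 1.20% in sEVs. In microglia the cell shares were 6.21, 6.61 and 10.5% and the sEV shares 4.64, 1.23 and 1.85%. All sEV shares lay below all cell shares in each of the 3 cultures, and cells and sEVs lay closest in microglia. The ratio of Gfap to Gja1 went from 1.91, 2.62 and 1.30 in astrocyte cells to 65.6, 60.1 and 132.5 in their sEVs. In neuron cultures the same ratio went from 2.18, 2.62 and 1.59 to 79.0, 62.8 and 71.2. The cell ratios of the 2 cultures thus overlapped, as did the sEV ratios, although the mean of Gfap in neuron cells was 9.29% of that in astrocyte cells. Within a library, the median log2 level of the cytosolic genes minus that of the membrane genes was -3.27 ± 0.22 in astrocyte cells and 1.08 ± 0.56 in astrocyte sEVs (SD, n = 3). It was -1.14 ± 0.39 and 2.92 ± 0.35 in neuron cells and sEVs, and 1.01 ± 0.59 and 5.29 ± 1.28 in those of microglia, where 7 genes had values. A separate measure, the median sEV difference of the cytosolic genes minus that of the membrane genes, was 5.47 in astrocytes (5.39 with Gjb6 at the floor of 3 counts), 4.82 in neurons and 3.52 in microglia. Aqp4 was at 0 in 2 of 3 microglia sEV libraries, so the microglia values 5.29 and 3.52 depend on the pseudocount.

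**Figure D3:**
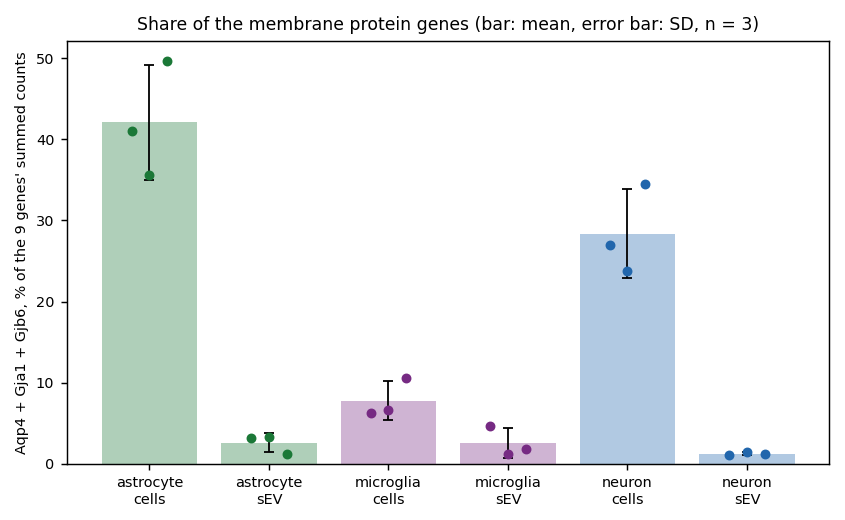
Share of Aqp4, Gja1 and Gjb6 in the summed normalized counts of the 9 genes, in percent, per library (points) with the mean and SD of each group (bars, n = 3). The astrocyte cells lie between 35.6 and 49.7% and the neuron cells between 23.7 and 34.5%, and no sEV library exceeds 4.64%.

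Scaling between libraries sets where 0 lies, and the median of all genes moved with it. In astrocytes that median was -0.60 as deposited, -0.77 with equal totals and 0.15 with quantile normalization, and the counts called higher and lower went from 1569 and 3646 to 2624 and 2681 with the last. The split in microglia went from 996 and 4151 to 2957 and 2402, and that in neurons from 2185 and 3705 to 3615 and 3439. Relative to the median under the same scaling, Gfap in astrocytes stood 0.73 above it as deposited, 0.73 with equal totals and 0.14 with quantile normalization. Vim stood 0.70 and 0.71 above and then -0.13 from it. Aldoc stayed above in each case (1.23, 1.24 and 0.47). Gja1 stood at -4.70, -4.70 and -5.60 and Aqp4 at -3.54, -3.54 and -4.24, so both kept their direction under the 3 scalings.

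The sEV effect itself was compared between cell types. Gja1 fell further in astrocytes than in microglia, a difference of -3.60 ± 0.81 on the log2 scale (limma, adjusted p = 0.00723). Gjb6 and S100b were at 0 in all microglia libraries, so their effects could not be compared between these cell types. Of the other 7 genes Gja1 alone was called, beside 13.3% of all genes called in either direction. For Glul the effect in astrocytes was lower than that in microglia, and the difference of -1.09 ± 0.47 was not called (limma, adjusted p = 0.155), except with equal totals (-1.57, adjusted p = 0.0289). Between astrocytes and neurons 0 of 9 genes were called by limma and 0 reached an unadjusted p of 0.05, beside 5.09% of all genes. The point estimates ran from -1.18 ± 0.81 for Gja1 to 0.48 ± 0.82 for S100b, with SEs from 0.47 to 2.53 over the 8 genes with a fold (Gjb6 has none, since astrocyte sEVs are at 0), so only large differences could have been detected.

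Astrocyte cells differed from the other cell types in most of the 9 genes, which were picked as astrocyte genes, so the counts describe the cultures only. Against microglia cells 8 of 9 genes were called higher (43.6% of the 18410 genes tested), among those with a fold from 1.54 ± 0.32 for Glul to 8.79 ± 0.87 for Aqp4 (limma, adjusted p = 0.00244 and 3.24e-05), and Vim was the exception (-0.25 ± 0.36, adjusted p = 0.567). Against neuron cells 7 of 9 were called higher (10.4% of all). Aqp4 led with 4.59 ± 0.87 (limma, adjusted p = 0.00401), followed by Gja1 with 3.59 ± 0.37 (adjusted p = 0.000151) and Gfap with 3.43 ± 0.70 (adjusted p = 0.00578). Aldoc (0.84 ± 0.34, adjusted p = 0.0932) and Gjb6 (-0.35 ± 0.65, adjusted p = 0.734) were not called, and Aldoc was with the 6 astrocyte and neuron cell libraries alone (adjusted p = 0.00383).

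In sEVs fewer of the 9 genes were called between the cultures. Against microglia sEVs 5 of 8 tested genes were called higher (26.6% of the 15514 tested). Gfap stood 7.92 ± 0.36 higher (limma, adjusted p = 2.83e-06), Aldoc 4.89 ± 0.28 (adjusted p = 6.50e-06) and Gja1 3.54 ± 0.70 (adjusted p = 0.00464). Aqp4 (10.23 ± 1.89, adjusted p = 0.00315) has a size that depends on the pseudocount, with 2 microglia libraries at 0, and S100b has no fold. Vim, Glul and Aldh1l1 were not called (-0.03, 0.46 and 5.94, adjusted p = 0.958, 0.278 and 0.0814), and Aldh1l1 was without microglia sEV replicate 1, its library at 0 (2.61, adjusted p = 0.000895), and without replicate 3 (7.78, adjusted p = 0.0381). Against neuron sEVs 3 of 8 were called higher (3.13% of all), namely Gfap (2.59 ± 0.36, limma, adjusted p = 0.00173), Vim (1.95 ± 0.28, adjusted p = 0.00216) and Glul (1.47 ± 0.31, adjusted p = 0.0168). The call of Glul was lost when the third astrocyte sEV library was left out (1.33, adjusted p = 0.0530) and when neuron sEV replicate 1, 2 or 3 was (1.17, 1.60 and 1.64, adjusted p = 0.0807, 0.0624 and 0.0543). Gja1 (2.40 ± 0.70, adjusted p = 0.0584) and Aqp4 (3.90 ± 1.89, adjusted p = 0.235) were not called with all 9 sEV libraries, and both were with the 6 libraries of these groups alone (adjusted p = 0.00219 and 0.00198). The same held for S100b (2.36, adjusted p = 0.0757, and 0.0314 with the 6 libraries) and Aldh1l1 (1.51, adjusted p = 0.787, and 0.00746).

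Levels were also set against each other per kilobase of the reference transcript, since counts alone do not rank different genes. In astrocyte cells Gfap led with 153723 ± 16501 normalized counts per kb (SD, n = 3), followed by Gja1 with 69665 ± 17672 and Aqp4 with 24738 ± 5465. Aldoc (9898 ± 1531), Vim (7857 ± 3499), Aldh1l1 (2601 ± 1033) and Glul (2397 ± 1118) came next, of which Aldoc and Vim overlapped in range, as did Aldh1l1 and Glul. In astrocyte sEVs Gfap still led with 173700 ± 61531, and Aldoc (15974 ± 6063) and Vim (8154 ± 2367) took the next places. Gja1 stood at rank 6 with 1735 ± 189 and Aqp4 at rank 8 with 1451 ± 510.4, in the range of Aldh1l1 (1545 ± 476). In neuron cells Gja1 (5713 ± 800) and Aldoc (5493 ± 425) overlapped, and in neuron sEVs Aldoc stood at 15058 ± 2203 and Gja1 at 337 ± 101.

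**Figure D4:**
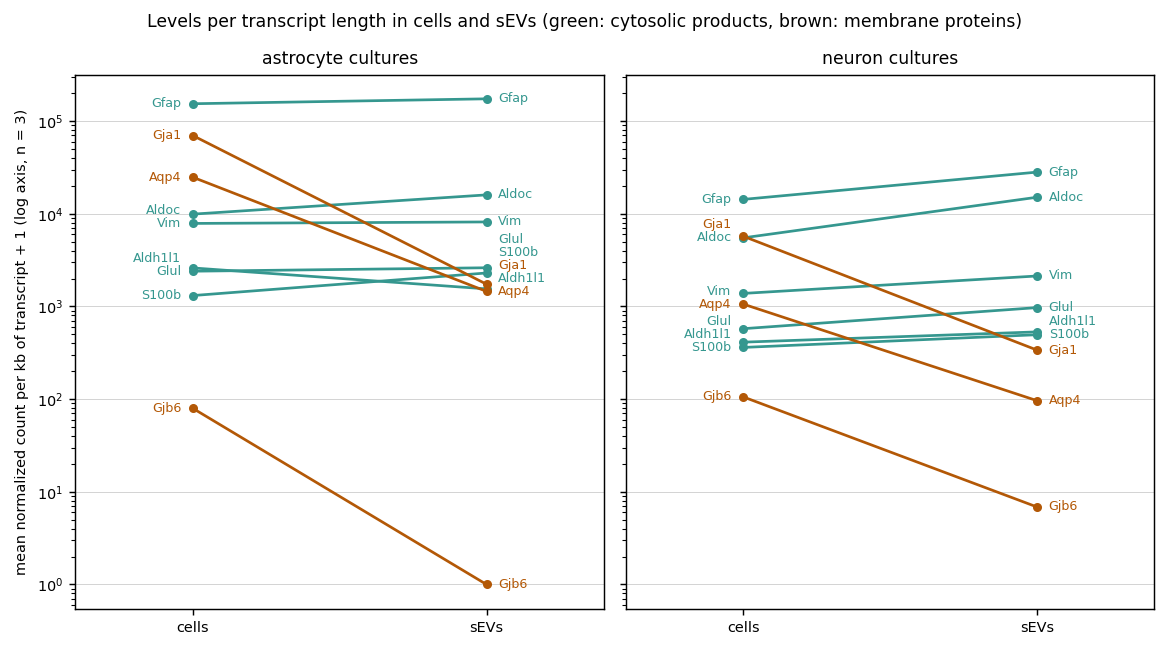
Mean normalized count per kb of transcript (plus 1, log axis, n = 3) of each gene in cells and sEVs of astrocyte and neuron cultures, with lines in green for cytosolic and in brown for membrane genes and labels shifted where they would overlap. The green lines run flat or slightly upward except Aldh1l1 in astrocytes, and the brown lines of Gja1 and Aqp4 cross green lines downward, whereas Gjb6 lies below all green lines in both cultures.

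Other genes of the same roles were counted by list in astrocytes, where 8.0% of all genes tested were called higher and 18.6% lower. Of 20 other soluble astrocyte products 4 were called higher and 0 lower, with a median of 0.59 beside -0.60 over all genes tested. They were Gstm5 (a glutathione transferase, 12467 ± 1759 in cells and 29030 ± 1645 in sEVs, SD, n = 3), the metallothioneins Mt2 (4129 ± 982 and 9564 ± 1741) and Mt1 (23987 ± 7605 and 37651 ± 10804), and the acyl-CoA-binding protein Dbi (58536 ± 8876 and 99488 ± 34334). Of 22 other astrocyte membrane proteins 0 were called higher and 12 lower, with a median of -3.45. Gpm6b, a membrane glycoprotein, went from 189003 ± 48865 to 44183 ± 10525 and the GABA transporter Slc6a11 from 1675 ± 540 to 274 ± 104, while the neurotensin receptor Ntsr2 went from 19096 ± 841 to 642 ± 562 with 1 sEV library at 0. Cd38, an enzyme of the cell surface, was listed at 0 in all 3 sEV libraries beside 220 ± 150 in cells. The 14 secreted products, which are also made at the endoplasmic reticulum, had 0 higher and 10 lower with a median of -3.50, among them the protease inhibitor Cst3 (171039 ± 79054 and 24149 ± 10150.0) and the carboxypeptidase Cpe (175004 ± 69762 and 23726 ± 4079). The protease Htra1 (5327 ± 1320.2 and 105 ± 143, with 1 sEV library at 0) and the proteoglycan Vcan (3652 ± 911 and 218 ± 207) had the largest falls among them. Of 10 astrocyte transcription factors, nuclear proteins made on free ribosomes, 1 was called higher and 0 lower with a median of 1.36. The share called is near the 8.0% of all genes called higher, and Nfia went from 4719.9 ± 494 to 17777 ± 1453. In neurons this list had 2 genes called higher, 0 lower and a median of 1.43. In microglia it had 0 higher, 2 lower and a median of -1.31, beside -0.79 over all genes tested. In neurons the soluble, membrane and secreted lists had 9, 0 and 0 genes called higher and 0, 8 and 4 lower, beside 11.1 and 18.9% of all genes called higher and lower. In microglia they had 4, 0 and 0 higher and 1, 9 and 9 lower, beside 5.08 and 21.2% of all genes. The lists were assembled with results of these data known, so their counts are descriptions. Where these mRNAs were translated was not measured, and its part in the differences was not tested.

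The nearest relatives of the 9 genes were more mixed. Of 11 other intermediate filament and lamin genes only Nes (nestin, the filament of neural progenitors) was called in astrocytes, and it rose from 788 ± 429 to 4332 ± 647 (2.57 ± 0.40, limma, adjusted p = 0.000240). The share called higher in this list is near the 8.0% of all genes. Of 15 tested genes of glycolysis, soluble like Aldoc, 1 was called higher and 8 lower, beside 8.0 and 18.6% of all genes. Their median was -0.75, beside -0.60 over all genes tested. Aldoa, the aldolase of most tissues, fell from 27824 ± 2852 to 19047 ± 5288 (-0.58 ± 0.18, limma, adjusted p = 0.0288), and Pgam1 rose from 13649 ± 902 to 18487 ± 3096 (0.43 ± 0.15, adjusted p = 0.0461). The largest falls in the list were those of Eno2, the neuronal enolase (181 ± 48.7 and 2.12 ± 3.68, with 2 sEV libraries at 0), and of the phosphofructokinase Pfkp (2479.9 ± 500.5 and 669.6 ± 637). Of 7 tested S100 genes 0 were called in either direction, with a median of 0.45. Of 15 aldehyde dehydrogenase and folate genes 1 was called higher and 3 lower, with Aldh2, the mitochondrial aldehyde dehydrogenase, and Aldh9a1 (2847 ± 224 and 1662 ± 589.7) among the latter and Aldh2 going from 1660.3 ± 441 to 491 ± 259.7. The share called lower in that list is near the 18.6% of all genes.

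Among channel relatives, 5 of 17 tested connexins, pannexins and aquaporins were called lower and 0 higher in astrocytes, with a median of -1.62. Gjb2 was listed at 0 in all astrocyte sEV libraries beside 167 ± 129.8 in cells, and Gjc3 went from 5272 ± 1579 to 1961 ± 1449.5. Proteins that anchor Aqp4 or connexins are mostly peripheral, and 2 of 11 were called lower and 0 higher, with a median of -0.15, a share near the 18.6% of all genes called lower. The 2 were Dag1 (dystroglycan, itself an anchored membrane protein, 10702 ± 2924 and 772 ± 567) and Dmd (dystrophin, 4662 ± 767 and 1009.7 ± 254), and the second of these is a cytoplasmic protein.

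The codon measure shown above was then read for all genes with a coding sequence. Of 15567 coding genes tested 15454 (99.3%) had a value, with a median of 10 codons with T at the second position in the richest 19-codon stretch (quartiles 9 and 11). At least 12, the value of Aqp4, was reached by 23.1% of genes, at least 14, that of Gjb6, by 8.13%, and at least 15, that of Gja1, by 3.36%, whereas 39.9% had at most 9. In astrocytes the median sEV difference was 0.09 for 2714 genes with at most 8, -0.26 for 6943 genes with 9 or 10, -0.95 for 2222 genes with 11, -1.70 for 2319 genes with 12 or 13, and -1.84 for 1256 genes with 14 or more. The share called lower was 7.74, 13.9, 21.0, 31.1 and 30.4% over the same steps. In genes with a mean of at least 1000 the medians were 0.47, 0.10, -0.49, -1.62 and -1.90. Microglia (-0.09, -0.71, -1.31, -1.79 and -1.96) and neurons (0.26, -0.18, -0.76, -1.50 and -1.76) had medians in the same order. The 3 libraries of a group are shared by all genes, so these are descriptions over genes and carry no test. In astrocytes and neurons Aqp4 and Gja1 lay below the middle 50% of genes in their steps. In microglia Aqp4 did too, whereas Gja1 (-1.70) lay within it (quartiles -4.33 and 0.0).

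**Figure D5:**
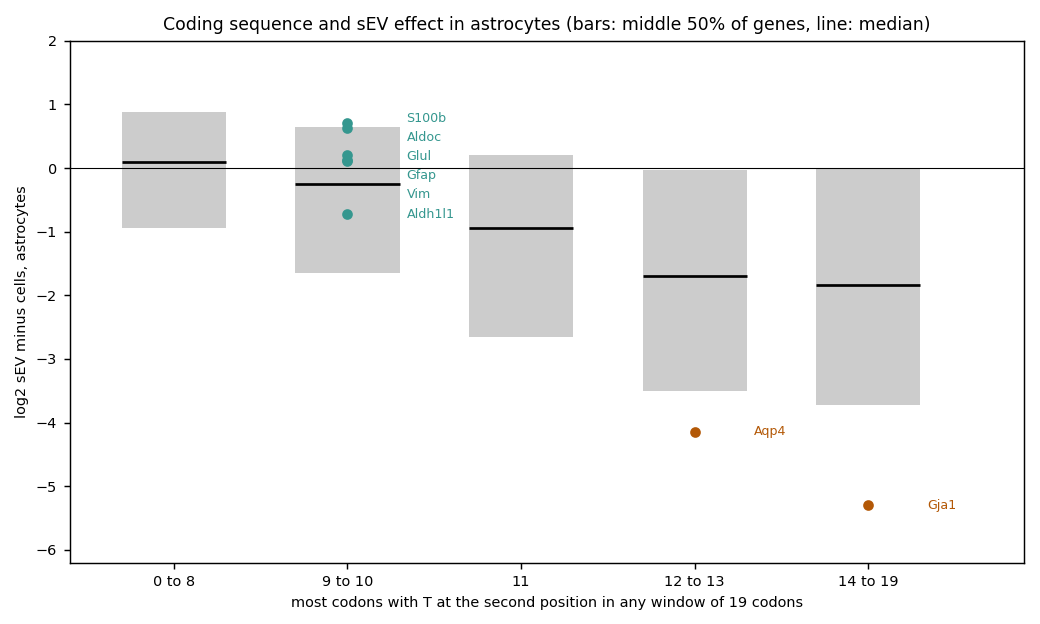
Difference between astrocyte sEVs and cells (log2) against the largest number of codons with T at the second position in any 19 codons, with grey bars for the middle 50% of all genes tested, black lines for their medians and points for the 9 genes (green cytosolic, brown membrane). The medians step down from 0.09 to -1.84, and the points of Aqp4 and Gja1 lie below the bars of their steps. Gjb6 (14 codons) has no point because its sEV group is at 0.

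Transcript length did not divide the classes. The membrane transcripts were 2105 to 5054 bases long and the cytosolic ones 1484 to 4175, with GC contents of 41.4 to 49.6% and 48.3 to 55.5%. The 3′ untranslated regions ran from 315 bases in Vim to 3958 bases in Aqp4. GC content overlapped between the classes in Gjb6, Glul and S100b alone, so base composition and class are not independent in these 9 genes, and its part in the result was not tested.

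Across the 18 libraries the log2 levels of Gfap were most like those of Thrsp (Pearson r = 0.98), Dmrtb1 (0.97) and Asrgl1 (0.96) among all genes tested, and those of Aqp4 most like Acsf2 (0.96), Rarres2 (0.95) and Sema6d (0.95). Thrsp had 2825 ± 95.2 in astrocyte cells and 5977 ± 309 in astrocyte sEVs (SD, n = 3), and Sema6d, a membrane-bound guidance protein, had 9518 ± 868 and 2656 ± 948. Within the 9 genes Aldoc went with S100b (r = 0.96), Gfap with S100b (0.95) and Aldoc (0.93), Aqp4 with Gfap (0.81) and Gja1 (0.79), and Vim with none of the others above 0.62, that value being for Glul. These correlations share the 6 group means and the library depths and are given as descriptions.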

How the data were processed

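Poly(A) RNA of 18 libraries was primed at poly(A) tails, amplified with 15 PCR cycles and tagmented, per the labels' protocols, with a kit that marks no strand. The authors deposited 1 table whose signal values are normalized counts, quantified with Salmon 1.8.0 on GRCm39 and normalized with DESeq2, per the submitters' processing notes. Of the values below 100, 2.90 to 9.04% per library were whole multiples of the commonest one (tolerance 0.001), so raw counts were not recovered and no count model was run. Columns matched the libraries' titles, and no column was left unmatched. The table also holds a mean per group. For microglia sEVs it equalled the mean of the 3 replicates in only 1477 of 18481 genes with a value. In the other groups it did so in all such genes, as in 17446 of 17446 for astrocyte sEVs. The deposited means were not used, and the cause of the mismatch was not tested.

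Differences were computed on log2(value + 1) in R 4.3.3 with the moderated linear models of limma 3.58.1 (trended prior). Genes of at least 10 in 3 libraries of a fit were tested, with Benjamini-Hochberg adjustment over all genes and calls at 0.05. One fit of 18 libraries gave sEVs against cells, and fits of the 9 cell or 9 sEV libraries gave cell type pairs. The fold of a low gene depends on the pseudocount on this scale, most of all where a library is at 0. The 9 genes and the lists were chosen with earlier results of these data known. Named from each list were the 2 largest and 2 smallest called astrocyte differences with a mean of at least 50 in astrocyte cells or sEVs, and the 3 genes most like Gfap and Aqp4, without predicted genes, RIKEN clones and pseudogenes. Some genes of the lists and some sequences are not reported here. Coding sequences came from GENCODE vM21 (GRCm38), aligned with blastn 2.17.0. Tests were run on simulated data first. Alternatives were another pseudocount, no filter, equal totals, quantile normalization, library weights, smaller fits, the replicate block and leaving out libraries.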

Additional observations from a re-analysis of the deposited data

Results flagged for a closer look

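Gja1 was singled out because its sEV effect differed between cell types by a test of the difference itself. The difference, astrocytes minus microglia, was -3.60 ± 0.81 on the log2 scale (limma interaction, adjusted p = 0.00723), with -5.30 in astrocytes and -1.70 in microglia. Microglia cells held 911, 1411 and 2854 normalized counts of Gja1, against 173876 to 283633 in astrocyte cells.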

How the results depend on the processing

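The fall of Gja1 in astrocytes and neurons kept its direction and its call under every alternative run. Among genes with small differences the direction turned with the scaling. With equal totals, Gfap and Vim were at -0.042 and -0.066 in astrocytes and at 0.085 and 0.20 in microglia, S100b in neurons at -0.072, and Vim at 0.52 between astrocyte and microglia cells and 0.26 between their sEVs. With quantile normalization, Gfap and Vim in microglia were at 0.032 and 0.097, Aqp4 at 0.11 for the astrocyte against the neuron sEV effect, Gjb6 at 0.49 between astrocyte and neuron cells, and Vim at 0.62 between astrocyte and microglia cells and 0.57 between their sEVs, where library weights gave 0.12. Equal totals without Ftl1, an alternative chosen after seeing the data, gave 0.13 and 0.25 for Gfap and Vim in microglia. None of these differences was called under any of the settings named.

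Library weights moved the called genes from 5147 to 3384 in microglia, from 5890 to 9158 in neurons and from 2608 to 1699 for astrocytes against microglia, and the 6 neuron libraries alone gave 9383. With a pseudocount of 10 the median sEV difference of the cytosolic genes minus that of the membrane genes was 4.30 in astrocytes, 4.12 in neurons and 2.43 in microglia. Leaving out single libraries moved Gfap, Vim and Glul in astrocytes over -0.15 to 0.26, -0.12 to 0.44 and -0.039 to 0.56, Gfap and Aldh1l1 in microglia over -0.88 to 0.75 and -4.46 to 0.72, S100b in neurons over -0.32 to 0.73, Gjb6 between astrocyte and neuron cells over -0.82 to 0.16, and, between sEVs, Vim (microglia) over -0.26 to 0.091 and Aldoc (neurons) over -0.25 to 0.31. The 999 genes called for the astrocyte against the neuron sEV effect became 567, 578 and 574 without neuron cell replicate 1, 2 and 3 (567 to 1407 over all leave-outs). The 2309 between astrocyte and neuron sEVs became 452, 582 and 594 without neuron sEV replicate 1, 2 and 3 (452 to 2390). The cause of these changes was not tested.

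Same-numbered cell and sEV libraries correlated at -0.04 to 0.04 in their deviations from the group means, in 9 pairs. Of the 9 cell libraries 6 correlated best with the sEV library of their own number. At such low correlations the values do not settle whether the numbers pair the libraries. The replicate block shared each number over all cell types, so it does not model pairs of cells and sEVs within a type. With this block the called genes were 5164 in astrocytes, 5114 in microglia and 5871 in neurons, and no gene's call of the 9 changed. Gjb6 was at 0 in all 3 astrocyte sEV and all 6 microglia libraries. In microglia sEVs Aqp4 was at 0 in 2 of 3 libraries and Aldh1l1 in 1 of 3. The size of their differences in these groups depends on the pseudocount, and the cause of the values at 0 was not tested.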
